A study of Homo sapiens with 12 samples.

Results

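The anterior HOXA and HOXB genes are the members of the 2 clusters that lie toward the early-activated end of each cluster: HOXA2, HOXA3, HOXA4 and HOXA5 on chromosome 7, and HOXB1, HOXB2, HOXB3, HOXB4 and HOXB5 on chromosome 17. A gene was taken as measured when the array's annotation gave its symbol to at least 1 probe. That held for 6 of the 9 genes, of 18646 genes measured in all. HOXB3 had 3 probes, HOXB2 and HOXB4 had 2 each, and HOXA2, HOXB1 and HOXB5 had 1 each, which made 10 of 41000 probes. HOXA3, HOXA4 and HOXA5 had no probe in the annotation used and were not analysed here.

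The cells were NTERA2 (NT2/D1), a human embryonal carcinoma line that takes on neural fates when given retinoic acid. Knockdown cells carried a short hairpin RNA against ZRF1 (shZRF1, gene symbol DNAJC2), and control cells carried a random hairpin (shRandom). Each was sampled without retinoic acid (0 h) and after 3 h at 0.01 µM, giving 4 kinds of RNA: knockdown at 0 h, control at 0 h, knockdown at 3 h and control at 3 h. Each of the 12 Agilent 2-colour arrays set knockdown against control RNA of the same time, in 3 replicates per time with a dye swap each. The labels call the replicates biological and place them on different days, without saying which day belongs to which number. They name the knockdown cells once in the titles but number them from 1 to 6 in the characteristics. They were treated here as 1 line, so an effect of the hairpin and a property of that line cannot be told apart.

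HOX proteins are homeodomain transcription factors that give positional identity along the head-to-tail axis. Genes at the anterior end of a cluster are switched on first and furthest toward the head, and retinoic acid turns them on in that order in embryonal carcinoma cells, through retinoic acid receptors bound near the clusters. In unstimulated cells the clusters are held silent by Polycomb complexes, which trimethylate histone H3 and ubiquitinate histone H2A. ZRF1 is a ribosome-associated chaperone partner that also binds ubiquitinated H2A. The question put to the anterior genes here is whether their RNA differed with the knockdown, first without and then with retinoic acid.

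RefSeq promoter sequence (GRCh38.p14) was matched to 4 of the 9 genes by symbol, of which HOXA2 and HOXB1 were measured. These are the anterior-most measured genes of each cluster, and the 250 bases before the start of each are shown so that the bases beside a gene with little measured difference in each cluster can be read. Both lie on the minus strand and are written 5′ to 3′ along the gene. Capitals mark matches to TGATNNAT on either strand, a core bound by PBX and HOX proteins together. In mouse, HOXB1 and PBX proteins are known to act on the Hoxb1 promoter through such a sequence.
HOXA2 (chr7:27102684-27102933): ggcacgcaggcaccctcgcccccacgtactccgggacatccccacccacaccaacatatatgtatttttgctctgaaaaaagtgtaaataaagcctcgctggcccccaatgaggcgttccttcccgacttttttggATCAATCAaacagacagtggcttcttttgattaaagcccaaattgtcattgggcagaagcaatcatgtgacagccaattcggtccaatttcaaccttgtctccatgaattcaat
HOXB1 (chr17:48531012-48531261): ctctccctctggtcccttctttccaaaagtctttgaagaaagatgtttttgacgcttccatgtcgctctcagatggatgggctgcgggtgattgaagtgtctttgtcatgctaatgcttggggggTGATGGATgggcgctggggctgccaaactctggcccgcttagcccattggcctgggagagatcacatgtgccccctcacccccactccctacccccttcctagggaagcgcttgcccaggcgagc
In HOXA2 the match lies at bases 137 to 144 on the opposite strand, and in HOXB1 at bases 126 to 133 on the strand shown. Windows of the same length before the starts of 35116 RefSeq promoters held this core in 6.47%. Forms of the sequence bound by a single retinoic acid receptor were searched on both strands, namely AGGTCA as the common form, GGGTCA as a variant of it, and further GGTTCA as well as AGTTCA. None has a match in either window. At least 1 of these 4 forms occurred in 33.8% of all windows.

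Each value below is a log2 ratio of knockdown over control, in which the forward and the dye-swapped array of a replicate were averaged unless single arrays are named. The files hold ratios without intensities, so a ratio near 0 does not tell a gene that was not expressed from one that was expressed equally. Their precision is limited by the number of arrays. Since treated and untreated RNA never shared an array, no value here is a response to retinoic acid. The log2 ratio of the hairpin's target DNAJC2 was below 0 on all 12 arrays, from -2.73 to -0.39. Its mean over both times was -0.83 ± 0.15 (moderated SE, n = 6, limma adjusted p = 0.0111). At 0 h alone it did not pass (-0.70 ± 0.21, adjusted p = 0.106), and at 3 h it did (-0.96, adjusted p = 0.0348). The mean was -0.53 without the 3 arrays called wide below (adjusted p = 1.23e-07), and forward arrays alone lost the call (adjusted p = 0.0647). Equal interquartile ranges (0.154 on every array) hid different tails. The span between the 1st and 99th percentiles was 3.04 for 3 h replicate 1 forward, 1.70 for 0 h replicate 2 swapped and 1.10 for 3 h replicate 3 swapped, against 0.745 to 0.990 on the others. These 3 arrays are called wide, and results are also given without them. The forward and swapped means of a gene had opposite signs for 54.1% of genes at 0 h and 50.1% at 3 h.

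Before retinoic acid none of the 6 genes passed the test, and HOXB2 had the highest mean (0.09), which was 0.03 without 0 h replicate 3, equal to HOXB3 there, and 0.02 on forward arrays alone, below the 0.12 of HOXB3. At 3 h HOXB2 was higher in knockdown than in control cells and HOXB3 lay just outside the threshold, while HOXA2, HOXB1, HOXB4 and HOXB5 stayed within 0.04 of 0 in log2. Averaged over both times, HOXB2 and HOXB3 were both higher, by 1.09-fold and 1.06-fold. None was lower. The test was limma's, with a Benjamini-Hochberg adjustment across the 18646 genes and a threshold of 0.05. At 0 h it called 0 of the 6 genes, against 6.82% of all genes, and no unadjusted p of the 6 was under 0.05 (0 of 6). At 3 h it called 1 of 6, against 12.6% of all genes, and for the mean over both times 2 of 6, against 21.5%. The median log2 ratio of the 6 genes was 0.00 at 0 h, 0.04 at 3 h and 0.02 over both times, and that of all genes was 0.00 in each. With 6 genes these shares are close to the background, and no excess is read from them.

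**Figure D1:**
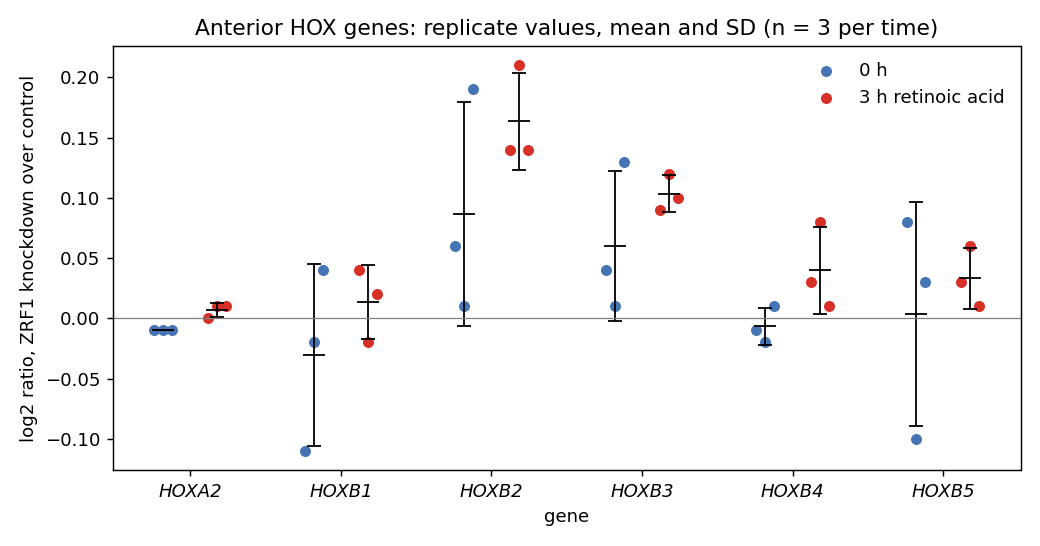
Log2 ratio of ZRF1 knockdown over control (y axis) for each measured anterior HOX gene (x axis), with 1 point per replicate at 0 h (blue) and at 3 h of retinoic acid (red); bars are the mean and SD of 3 replicates. All 6 points of HOXB2 and of HOXB3 lie above 0, and the other 4 genes straddle it.

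HOXB2 specifies hindbrain segments and facial motor neurons in mouse. Its 3 replicates at 0 h had log2 ratios of 0.06, 0.01 and 0.19, and its 3 replicates at 3 h had 0.14, 0.21 and 0.14. All 6 were above 0, which was true of 14.1% of all genes, and the ranges of the times overlapped. The fitted log2 ratio was 0.09 ± 0.04 at 0 h (moderated SE, 95% interval 0.00 to 0.18, limma adjusted p = 0.243). At 3 h it was 0.16 ± 0.04 (interval 0.07 to 0.25, limma adjusted p = 0.0387), a ratio of 1.12. A larger absolute ratio at 3 h was found in 12.2% of genes. Over both times it was 0.12 ± 0.03 (interval 0.06 to 0.19, limma adjusted p = 0.0196).

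The 3 h call for HOXB2 was close to the threshold. It was lost without 0 h replicate 1 (adjusted p = 0.0784) and without 3 h replicate 1, 2 or 3 (adjusted p = 0.0703, 0.149 and 0.0809), and with each time fitted alone (0.101). With the replicate number as a block its adjusted p was 0.113 at 3 h and 0.068 over both times. The call over both times was also lost without 0 h replicate 1 (adjusted p = 0.0568) and without 3 h replicate 2 (adjusted p = 0.0661). The dye orientation moved both values: forward arrays alone gave 0.09 at 3 h (adjusted p = 0.173) and 0.05 over both times (0.208), and swapped arrays alone gave 0.24 (0.0201) and 0.20 (0.00321). Without the wide arrays HOXB2 passed at both times, with 0.11 at 0 h (adjusted p = 0.034) and 0.18 at 3 h (adjusted p = 0.00516).

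HOXB3 acts in posterior hindbrain segments in mouse, beside its paralog HOXA3. Its log2 ratios were 0.04, 0.01 and 0.13 in the 0 h replicates, and 0.09, 0.12 and 0.10 in the 3 h replicates. All were above 0, and the 3 h values lay inside the range of the 0 h values. The fit gave 0.06 ± 0.03 at 0 h (interval -0.01 to 0.13, limma adjusted p = 0.266) and 0.10 ± 0.03 at 3 h (interval 0.04 to 0.17, limma adjusted p = 0.0607). Over both times it gave 0.08 ± 0.02 (interval 0.03 to 0.13, limma adjusted p = 0.0306).

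That call for HOXB3 was lost without 0 h replicate 1 (adjusted p = 0.0777), without 0 h replicate 3 (0.0779), without 3 h replicate 2 (0.0915) and without 3 h replicate 3 (0.0673). With the replicate block the adjusted p was 0.0898. The median over the probes of the gene gave 0.03 over both times (adjusted p = 0.194), and swapped arrays alone gave 0.04 (adjusted p = 0.304), against 0.12 on forward arrays alone (adjusted p = 0.0199). Without the wide arrays HOXB3 passed at 0 h, at 0.09 (adjusted p = 0.0217), and at 3 h, at 0.11 (adjusted p = 0.012).

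HOXB4, best known from the posterior hindbrain and from blood stem cell growth, had log2 ratios of -0.01, -0.02 and 0.01 at 0 h and of 0.03, 0.08 and 0.01 at 3 h. The 3 h values reached higher, and the ranges touched at 0.01. The fitted ratio was -0.01 ± 0.02 at 0 h (interval -0.06 to 0.05) and 0.04 ± 0.02 at 3 h (interval -0.01 to 0.10), with limma adjusted p of 0.900 and 0.287. HOXB5, which acts in neural crest cells that form the gut's nerves in mouse, had 0.08, -0.10 and 0.03 at 0 h and 0.03, 0.06 and 0.01 at 3 h. Its replicates were wider apart at 0 h than at 3 h. The fit gave 0.01 ± 0.04 at 0 h (interval -0.08 to 0.09) and 0.03 ± 0.04 at 3 h (interval -0.06 to 0.12), with limma adjusted p of 0.952 and 0.648.

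HOXA2 and HOXB1 are the genes whose promoters are printed above. HOXA2 gives the second pharyngeal arch its identity in mouse, and it had the most even ratios of the 6 genes. They were -0.01 in each of the 3 replicates at 0 h and 0.00, 0.01 and 0.01 at 3 h. The fitted interval over both times was -0.03 to 0.03, which is narrow around no difference on this scale. HOXB1 marks the fourth hindbrain segment in mouse and is an early target of retinoic acid there. It had -0.11, -0.02 and 0.04 at 0 h and 0.04, -0.02 and 0.02 at 3 h, so that its replicates lay on both sides of 0 at each time. The fit gave -0.03 ± 0.03 at 0 h and 0.01 ± 0.03 at 3 h (limma adjusted p = 0.628 and 0.845), with an interval over both times of -0.06 to 0.04.

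In order of the 3 h ratio the genes ran HOXB2 (0.16 ± 0.04), HOXB3 (0.10 ± 0.02), HOXB4 (0.04 ± 0.03), HOXB5 (0.03 ± 0.02), HOXB1 (0.01 ± 0.03) and HOXA2 (0.01 ± 0.01), each as the mean ± SD of 3 replicates. As averages over a gene's probes, the 3 h replicates of HOXB2 did not overlap those of HOXB3, nor those of HOXB3 those of HOXB4. Each later pair of neighbours overlapped, so HOXB4, HOXB5, HOXB1 and HOXA2 have no order beyond their spread. The order of HOXB2 and HOXB3 depended on the probes averaged. At 3 h probe A_24_P399220 of HOXB3 was at 0.31 and A_23_P107283 of HOXB2 at 0.27, and their other probes were at -0.05 to 0.06. On forward arrays alone HOXB3 (0.12) lay above HOXB2 (0.09) at 3 h. These are differences of ratios between genes and not of levels.

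Subtracting the 0 h ratio from the 3 h ratio asks whether the knockdown ratio moved with retinoic acid. It was 0.08 ± 0.05 for HOXB2 (interval -0.05 to 0.21, limma adjusted p = 0.719), 0.05 ± 0.03 for HOXB4 (0.719) and 0.04 ± 0.04 for HOXB3 (0.741). HOXA2, HOXB1 and HOXB5 had 0.02, 0.04 and 0.02, with adjusted p of 0.756 to 0.887. The test called 0 of the 6 genes and 0% of all genes, although 943 of 18646 genes had an unadjusted p under 0.05 in limma, with 0 of the 6 among them. A stronger effect of the knockdown on HOXB2 or HOXB3 at 3 h than at 0 h was therefore not shown.

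The probes of HOXB2 gave unlike ratios, as did those of HOXB3. The 2 probes of HOXB4 differed by a mean of 0.06 in log2 with an SD of 0.11 over 6 replicates, within their spread. No test between probes was made. For each gene the highest probe was picked from these same values and set against the others. Counts of how often it was the higher follow in part from that choice, and nothing is read from them. For HOXB2, probe A_23_P107283 had log2 ratios of 0.13, 0.13 and 0.24 in the 0 h replicates and 0.25, 0.30 and 0.25 in the 3 h replicates. Probe A_24_P33077 of the same gene had -0.01, -0.12 and 0.14 at 0 h and 0.03, 0.11 and 0.04 at 3 h. The first was the higher in 6 of 6 replicates and on 10 of 12 arrays, by a mean of 0.19 in log2 (SD 0.06). This gap lay mainly on swapped arrays, where the first had 0.21 to 0.44 and the second -0.10 to 0.16. On forward arrays they had 0.04 to 0.16 and -0.15 to 0.15. In a fit over all 41000 probes A_23_P107283 passed at 0 h (0.17 ± 0.03, limma adjusted p = 0.0444), at 3 h (0.27 ± 0.03, adjusted p = 0.014) and over both times (0.22 ± 0.02, adjusted p = 0.00301). A_24_P33077 passed in none of these, with 0.03 over both times (adjusted p = 0.616).

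For HOXB3, probe A_24_P399220 had 0.21, 0.28 and 0.36 in the 0 h replicates and 0.26, 0.38 and 0.30 in the 3 h replicates. The other probes of HOXB3 were near 0: A_23_P100872 had -0.06, 0.02 and 0.02 at 0 h and -0.03, -0.05 and -0.08 at 3 h, and A_23_P316511 had -0.03, -0.27 and 0.01 at 0 h and 0.03, 0.02 and 0.08 at 3 h. A_24_P399220 was above each of them in 6 of 6 replicates and on 12 of 12 arrays, by a mean of 0.33 in log2 (SD 0.07 and 0.13). It passed at 0 h (0.28 ± 0.04, limma adjusted p = 0.0196), at 3 h (0.31 ± 0.04, adjusted p = 0.0149) and over both times (0.30 ± 0.03, adjusted p = 0.00251). The other probes had -0.03 each over both times (adjusted p = 0.393 and 0.703). The gene average of HOXB3 therefore mixed 1 probe with a ratio of 1.23 over both times and 2 probes with a ratio of 0.981 each.

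**Figure D2:**
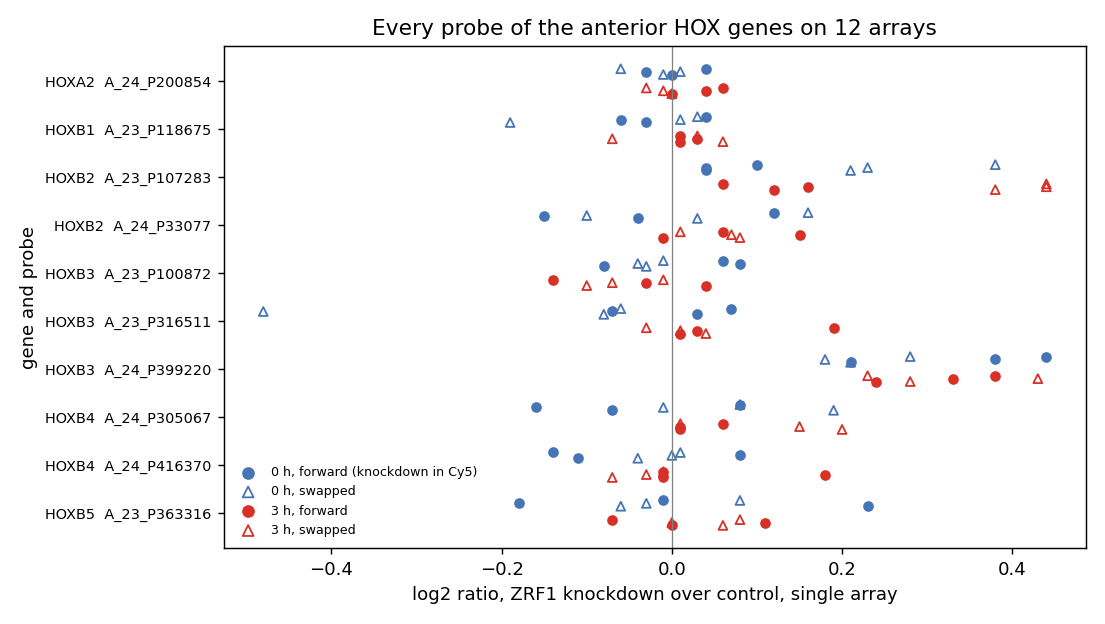
Log2 ratio of ZRF1 knockdown over control (x axis) for each probe of the anterior HOX genes (y axis), with 1 point per array; filled circles are forward arrays, open triangles swapped arrays after turning the sign, blue 0 h and red 3 h. Only A_23_P107283 (HOXB2) and A_24_P399220 (HOXB3) have all 12 arrays above 0.

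Those 2 probes were the only ones of the 10 that passed in any of these comparisons, which made 2 of 10 at 0 h, at 3 h and over both times, against 3.05%, 7.79% and 15.4% of all probes. They were also the only ones of the 10 above 0 on all 12 arrays, a pattern that 3.35% of all probes had. The difference of times passed for 0 of 10, as for 0% of all probes. Both dye orientations were above 0 for each, and their sizes were far apart for A_23_P107283. A_23_P107283 lay at 0.04 to 0.16 on forward arrays and at 0.21 to 0.44 on swapped arrays. Forward arrays alone gave it 0.11 at 3 h (adjusted p = 0.0906) and swapped arrays alone 0.42 (adjusted p = 0.0118). A_24_P399220 gave 0.32 and 0.31 in the same way (adjusted p = 0.0405 and 0.0182), and 0.35 and 0.22 at 0 h (adjusted p = 0.0359 and 0.0214). At 0 h A_23_P107283 had 0.06 on forward arrays alone (adjusted p = 0.365) and 0.27 on swapped arrays alone (adjusted p = 0.0105).

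A_24_P399220 passed over both times in 14 of 14 alternative settings and A_23_P107283 in 13 of 14, including all 6 in which 1 replicate was left out. The exception came from the forward arrays (0.09, adjusted p = 0.0506). A replicate block left both past the threshold over both times, at an adjusted p of 0.0361 for A_24_P399220 and 0.0428 for A_23_P107283. At a single time the block lost both, with an adjusted p of 0.151 for A_24_P399220 and 0.212 for A_23_P107283 at 0 h and of 0.124 each at 3 h, and fitting each time alone lost both at 3 h (0.138 each) and A_23_P107283 at 0 h (0.0556). Left-out replicates also ended single-time calls: at 3 h both were lost without 3 h replicate 2 (adjusted p = 0.0659 each) and without 3 h replicate 3 (0.0544 for A_24_P399220 and 0.0514 for A_23_P107283), and at 0 h both were lost without any 1 of the 0 h replicates (0.0977 to 0.192). A_23_P107283 was also lost at 0 h without 3 h replicate 2 (0.0844) or 3 h replicate 3 (0.0713).

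The sources used here do not give the transcript that each probe reads. In RefSeq the interval of HOXB3 contains all of HOXB4 and overlaps the antisense and non-coding genes HOXB-AS1, HOXB-AS2 and HOXBLINC, and the interval of HOXB2 also overlaps HOXB-AS1. HOXB4's own probes had mean log2 ratios of 0.05 (A_24_P305067, limma adjusted p = 0.319) and -0.01 (A_24_P416370, adjusted p = 0.784). HOXB-AS1 and HOXB-AS2 had no probe of their own in the annotation. What sets the probes of HOXB2 and of HOXB3 apart was not tested.

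**Figure D3:**
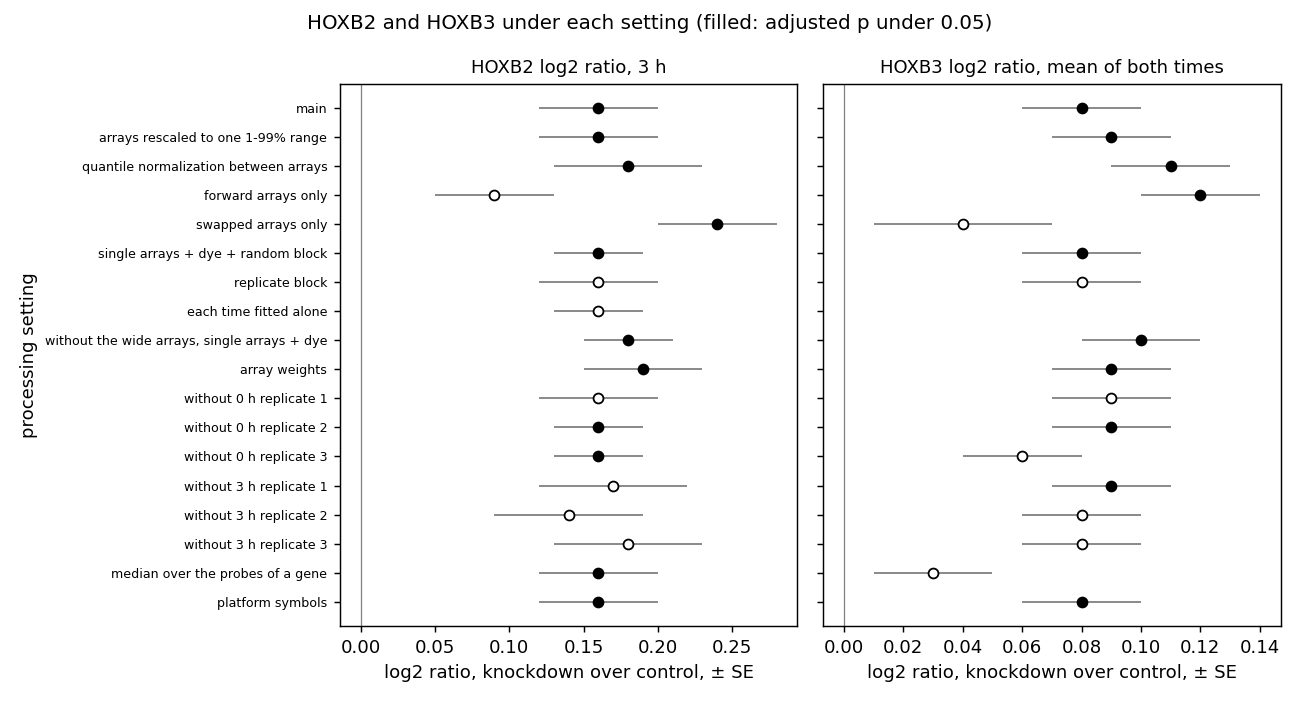
Log2 ratio of HOXB2 at 3 h (left) and of HOXB3 over both times (right) with SE (x axis) under each processing setting (y axis); filled points have an adjusted p under 0.05. HOXB2 ranges from 0.09 to 0.24 and HOXB3 from 0.03 to 0.12, always above 0.

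Of the 6 measured HOX genes of paralog groups 1 to 3, HOXB2, HOXD1 and HOXD3 were higher at 3 h, against 12.6% of all genes called in either direction, and HOXB2, HOXB3, HOXD1 and HOXD3 over both times, against 21.5%. HOXA2 and HOXB1, of the same groups, did not pass. Of the 5 measured genes of groups 4 and 5, 0 passed in any comparison of limma, also at an unadjusted p under 0.05, and their median log2 ratio over both times was 0.02. Of the 6 of groups 6 to 8, HOXD8 was higher over both times (0.07 ± 0.02, limma adjusted p = 0.0409). Its call held in 1 of the 6 fits that left out a replicate, and was lost on forward or swapped arrays alone (adjusted p = 0.0831 and 0.0907). No trend along the paralog groups was tested. The groups were cut with earlier results of these data known, and no excess is read from their counts. Of all 29 measured HOX genes, 7 passed at 3 h and 9 over both times. HOXD1 had -0.02, 0.06 and 0.06 at 0 h, and 0.54, 0.19 and 0.27 at 3 h. The difference of times missed the threshold for HOXD1 (0.30 ± 0.09, limma adjusted p = 0.718). HOXD3 had 0.05, 0.08 and 0.14 at 0 h, and 0.21, 0.17 and 0.21 at 3 h. Its difference of times missed the threshold too (0.10 ± 0.04, adjusted p = 0.718). At 3 h the fit gave 0.33 ± 0.06 for HOXD1 (limma adjusted p = 0.0234) and 0.20 ± 0.03 for HOXD3 (adjusted p = 0.011). HOXD1 leaned on the dye orientation and on a wide array, with 0.53 on forward arrays, 0.13 on swapped arrays and 0.22 without the wide arrays at 3 h, and over both times 0.01 on swapped arrays (adjusted p = 0.697). Its 3 h call was lost without 0 h replicate 1 (adjusted p = 0.0544), 0 h replicate 3 (0.0564) or 3 h replicate 3 (0.0533).

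Within the HOXA and HOXB clusters no further coding gene passed. The 5 other measured genes, HOXB6, HOXB7, HOXB8, HOXB9 and HOXB13, had 0 calls in each comparison of limma, and 1 of the 5 had an unadjusted p under 0.05 at 3 h (HOXB13, 0.06 ± 0.02). Over both times they ranged from -0.06 to 0.01. Of the 5 measured genes in a list of non-coding transcripts of these clusters, which also holds the small coding gene PRAC1, HOXA11-AS was higher, by 0.42 at 0 h (limma adjusted p = 0.00384) and 0.36 at 3 h (adjusted p = 0.00393). It lies at the posterior end of HOXA, far from HOXA2. Of 13 measured HOXC and HOXD genes of groups 6 to 13, 4 were higher at 0 h, against 6.82% of all genes called, and 4 at 3 h, against 12.6%. At both times these were HOXC9, HOXD9, HOXD10 and HOXD11, at 0.27 to 0.43 in log2 at 0 h and 0.26 to 0.44 at 3 h. The others of the 13 passed at neither time. Over both times each of these 4 genes passed in 16 of 16 alternatives, but calls at a single time were less firm. Forward arrays alone gave HOXD9 0.11 at 0 h (adjusted p = 0.177) and 0.15 at 3 h (adjusted p = 0.0671), and swapped arrays alone gave it 0.44 and 0.38. HOXD10 was lost on forward arrays alone at 0 h (adjusted p = 0.0967) and on either orientation alone at 3 h (0.0634 and 0.0687). HOXC9 was lost on forward arrays alone at 3 h (adjusted p = 0.0536). With 1 replicate left out, HOXC9, HOXD9 and HOXD10 each held at 0 h in 3 of 6 fits, and HOXD10 at 3 h in 3 of 6. No HOX gene of any cluster passed in the lower direction in the 4 comparisons as first fitted.

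**Figure D4:**
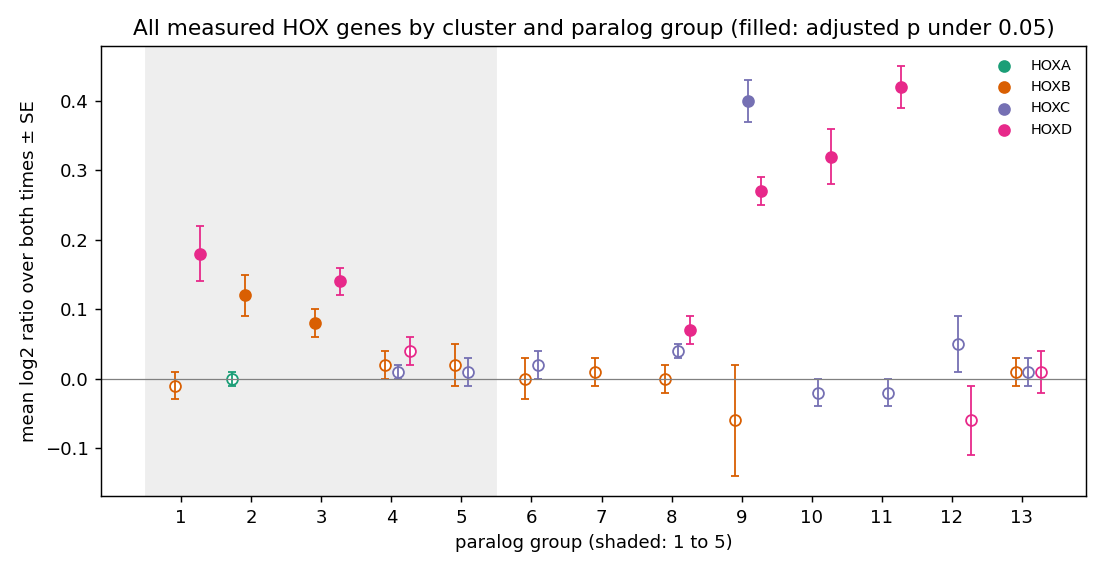
Mean log2 ratio over both times with SE (y axis) for the 29 measured HOX genes by paralog group (x axis), coloured by cluster; filled points have an adjusted p under 0.05, and groups 1 to 5 are shaded. HOXB2 (0.12) and HOXB3 (0.08) sit beside HOXD1 (0.18) and HOXD3 (0.14), the genes of groups 4 and 5 lie near 0, HOXD8 is at 0.07, and HOXC9, HOXD9, HOXD10 and HOXD11 are at 0.27 to 0.42.

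Genes that act on the anterior HOX genes moved in both directions. Of 14 measured retinoic acid receptors and turnover genes, 2 were higher and 1 lower at 3 h, against 12.6% of all genes called. RARB, a receptor that is itself a target of retinoic acid, was at 0.20 ± 0.03 (limma adjusted p = 0.0168), but at 0.10 on swapped arrays alone (adjusted p = 0.105). ALDH1A3, which makes retinoic acid, was at 0.14 ± 0.03 (adjusted p = 0.0268). CRABP2, which carries it to the nucleus, was at -0.39 ± 0.09 (adjusted p = 0.0354), and at -0.26 without 3 h replicate 1. At 0 h 1 was higher and 1 lower, against 6.82% of all genes: STRA6, a retinol transporter, at 0.15 ± 0.03 (adjusted p = 0.0304), and CYP26A1, which degrades retinoic acid, at -0.20 ± 0.04 (adjusted p = 0.0478). STRA6 was near 0 on forward arrays alone (0.01), and CYP26A1 was at -0.12 there (adjusted p = 0.254). The calls of CRABP2 and ALDH1A3 at 3 h and of CYP26A1 at 0 h each held in 1 of the 6 fits that left out a replicate, with an adjusted p of up to 0.0727, 0.105 and 0.255.

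Of 8 measured upstream regulators, 1 was higher and 1 lower at 0 h, against 6.82% of all genes called, and 4 were higher and 1 lower at 3 h, against 12.6%. TFAP2A, a neural crest factor that activates HOXA2 in mouse, was at 0.20 ± 0.02 at 0 h (limma adjusted p = 0.00827) and 0.18 ± 0.02 at 3 h (adjusted p = 0.00951). ZIC1, an early neural factor, was at 0.43 ± 0.06 at 3 h (adjusted p = 0.0142), and GBX2, which sets the front border of the hindbrain in mouse, at 0.14 ± 0.03 (adjusted p = 0.0266). The remaining higher gene at 3 h was CDX1 (0.11, adjusted p = 0.0285). Its call held in 0 of the 6 fits that left out a replicate, and that of GBX2 in 2 of 6. Forward arrays alone lost CDX1 (adjusted p = 0.144), GBX2 (0.0626) and TFAP2A (0.0511) at 3 h. VENTX, a homeodomain repressor, was lower at both times (-0.20 and -0.17, adjusted p = 0.0154 and 0.0177), but at -0.02 on swapped arrays alone at 3 h (adjusted p = 0.801), where forward arrays gave -0.32. Among 8 measured TALE cofactors, which bind DNA with HOX proteins, 0 passed at either time in limma (1 at 0 h and 2 at 3 h had an unadjusted p under 0.05), and PBX4 was lower over both times (-0.16 ± 0.04, adjusted p = 0.0274). The call of PBX4 was lost on forward arrays alone (adjusted p = 0.0608) and held in 3 of the 6 fits that left out a replicate.

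Of 22 measured Polycomb and Trithorax regulators, 1 was lower at 0 h, against 6.82% of all genes called, and 2 were higher at 3 h, against 12.6%. BMI1, a subunit of the complex that ubiquitinates H2A, was at -0.11 ± 0.02 at 0 h (limma adjusted p = 0.0362), but at 0.01 on forward arrays alone. KDM6A, which removes the methyl mark of Polycomb, was at 0.23 ± 0.04 at 3 h (adjusted p = 0.024), and EZH2, which writes it, at 0.19 ± 0.03 (adjusted p = 0.0151). Forward arrays alone lost KDM6A (adjusted p = 0.145), and swapped arrays alone lost EZH2 (0.11, adjusted p = 0.187). Of 11 genes beside the HOXA and HOXB clusters, 1 was lower at 0 h, and 2 were higher and 1 lower at 3 h, against the same shares of all genes. CALCOCO2, beside HOXB, was lower at both times (-0.24 and -0.19, adjusted p = 0.00744 and 0.0111), while HIBADH, beside HOXA, was higher at 3 h (0.30 ± 0.03, adjusted p = 0.00882). Forward arrays alone lost HIBADH at 3 h (adjusted p = 0.0786). The difference of times passed in limma for 0 of 91 genes over the 9 lists beside the anterior genes, the other HOX genes and non-coding transcripts included, and 11 had an unadjusted p under 0.05.

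Markers of other cell types could be counted by direction and not by level. Of 9 pluripotency markers, limma called 0 at either time, and at each time 1 had an unadjusted p below 0.05. Over both times 2 were lower, against 21.5% of all genes called: LIN28B (-0.08, limma adjusted p = 0.046) and DNMT3B (-0.07, adjusted p = 0.0483). Each held in 1 of the 6 fits that left out a replicate. Of 8 early neural markers, 1 was lower at 0 h (MAP2, -0.14), and at 3 h PAX6 was higher (0.23) and SOX1 lower (-0.13). MAP2 was lost at 0 h on forward arrays alone (limma adjusted p = 0.14). SOX1 was lost at 3 h on forward or swapped arrays alone (limma adjusted p = 0.145 and 0.143). Over both times PAX6 was higher, and MAP2 and SOX1 were lower. Of 7 mesoderm and endoderm markers only EOMES passed, higher at both times (0.33 and 0.34). Of 6 fibroblast markers THY1 and LUM were higher and COL1A1 lower at both times, and the others did not pass. Of all genes, 6.82% were called at 0 h and 12.6% at 3 h, and no shift of a cell type is read from these single markers. Of 6 trophoblast and epithelial markers limma called 0, and at 3 h 1 had an unadjusted p below 0.05. The part of cell makeup in the HOXB2 and HOXB3 ratios was not tested, and fewer cells of a type and less RNA per cell cannot be told apart in these samples.

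The genes nearest to HOXB2 over the 6 replicate ratios, by root mean square difference in log2, were TMEM133 (0.0312), RCSD1 (0.0342) and C10orf143 (0.0361), against a median of 0.157 over all genes. Nearest to HOXB3 were RANBP6 (0.0141), STMN2 (0.016) and JMJD1C-AS1 (0.016), against a median of 0.114. None of these 6 is a HOX gene.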

How the data were processed

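Per the labels, total RNA of NT2/D1 knockdown and control cells was labelled with Cy5 and Cy3 in forward and dye-swapped arrays. The deposited values are a score, read from the numbers as Cy5 over Cy3 fold changes with a sign (a ratio below 1 appears as its inverse with a minus, and 0 values lie between -1 and 1). Limma was used per the submitters' processing notes, and the background correction and normalization are not given in the sources used here. Here the ratios were converted to log2, the sign of swapped arrays was turned by the labelled dyes, probes of a gene were averaged (29341 probes with 1 symbol, 33 with several and 11626 with none), and the 2 arrays of a replicate were averaged. Limma 3.58.1 in R 4.3.3 (lmFit, eBayes) fitted both times together, with 4 residual degrees of freedom, a Benjamini-Hochberg adjustment over all genes and a threshold of 0.05. P-values measure the spread between these replicates. The script recovered 22 of 50 simulated log2 changes of 0.2 and 2 of 50 of 0.1 at 3 h, over 18646 genes. Far fewer genes were changed there than the 12.6% called at 3 h in these data, which makes the adjustment stricter. Its noise was also drawn independently for each value, so these shares are not the sensitivity of the tests above. Same-number correlations of deviations between the times were 0.04, -0.03 and -0.30, which gave no sign that replicate numbers pair the times. With 3 replicates per time and wide arrays among them, these values cannot settle it. The main fit used no replicate block, and results with the block are given as an alternative. The genes, lists and tests were chosen with earlier results of these data known. Named genes were the target, every member and probe, and from each list up to 4 genes past the threshold with the largest ratio or, with none, the 2 with the smallest p. HOXB13 was named for its unadjusted p, and CDX1 as the remaining call of its list at 3 h. Alternatives changed the scaling, orientation, model, arrays and probe averaging.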

Additional observations from a re-analysis of the deposited data

Results flagged for a closer look

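A single array stood apart from the other 5 of its time in 4 sets of values, by the gap to its nearest neighbour as a share of the whole range (Dixon's test at the 95% level for 6 arrays). Chance gives about 1 such set in 20. HOXB3 probe A_23_P316511 was at -0.48 on the swapped array of 0 h replicate 2, one of the wide arrays, with a gap of 0.717 of the range, and the other 0 h arrays lay between -0.08 and 0.07. At 3 h the same probe was at 0.19 on the forward array of replicate 3 (gap 0.673). HOXB1 was at -0.07 on the swapped array of 3 h replicate 2 (gap 0.667). HOXB4 probe A_24_P416370 was at 0.18 on the forward array of 3 h replicate 2 (gap 0.773). The probes that passed, A_23_P107283 of HOXB2 and A_24_P399220 of HOXB3, had no array that stood apart by this measure.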

How the results depend on the processing

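HOXB2 and HOXB3 kept a log2 ratio above 0 at 0 h, at 3 h and over both times under each alternative run, except HOXB3 at 0 h on swapped arrays alone (0.00). At 0 h the count of members past the threshold was 0, against 1 on swapped arrays alone, 2 without the wide arrays and 2 with each probe tested alone. At 3 h it was 1, against 2 with rescaled arrays, quantile normalization, single arrays with a dye term, no wide arrays, array weights or each probe alone, and 0 on forward arrays alone, with the replicate block or with each time fitted alone. Over both times it was 2, against 1 on forward arrays alone (HOXB3), on swapped arrays alone (HOXB2) and with the median of a gene's probes (HOXB2), and 0 with the replicate block. Leaving out 1 replicate gave 0 at 0 h, 0 to 1 at 3 h and 0 to 2 over both times. The difference of times gave 0 in all 17 alternatives. Calls over all genes were 1271 at 0 h, 2350 at 3 h, 0 for the difference and 4007 over both times, against 0 to 4427, 0 to 3722, 0 to 1 and 1846 to 6785. With the replicate block they were 0, 0, 0 and 1846, and whether the replicate numbers pair the samples is not known. Of 84 calls for other named genes, 39 held when any 1 replicate was left out and 24 with the replicate block.

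Of 802 values of members and probes under alternatives 42 changed sign, 0 of them past the threshold, and the cause was not tested. On forward arrays HOXA2 at 0 h was 0.00, HOXB1 0.00 and HOXB4 -0.01 over both times, and the difference of HOXB3 -0.01. Swapped arrays gave 0.00 for HOXB3 and HOXB5 and 0.04 for HOXB4 at 0 h, and for HOXA2 -0.01 at 3 h and -0.02 over both times. Array weights gave HOXB1 -0.01 at 3 h. Without a replicate, HOXB1, HOXB4, HOXB5 and HOXA2 crossed 0 at values of -0.03 to 0.01 (0.01, 0.00, -0.01 and -0.03), while the same omissions took HOXB1 at 0 h down to -0.06, HOXB5 up to 0.06 at 0 h and in the difference and to 0.05 over both times. Among probes, A_23_P100872 at 0 h gave 0.00 to 0.02, A_24_P33077 -0.07 to 0.00 (-0.02 on forward arrays, and up to 0.13 in the difference and 0.06 over both times without a replicate), A_23_P316511 0.01 to 0.04, A_24_P305067 -0.05 to 0.00, the difference of A_24_P399220 -0.03 to 0.00, and A_24_P416370 -0.04 to 0.00. BMI1 gave 0.01 on forward arrays at 0 h and over both times, DNMT3B 0.03 on swapped arrays, and the difference of DNAJC2 0.03 with quantile normalization, 0.20 on swapped arrays, 0.04 without the wide arrays and with array weights, and from -0.52 to 0.07 when a replicate was left out. With ratios alone no signal over background could be set.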
